A study of Mus musculus with 12 samples.

Results

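The 7 genes described here encode transcription factors that direct lymphocytes to fates other than the conventional CD8+ T cell: *Gata3*, *Rora*, *Zbtb7b*, *Foxp3*, *Maf*, *Ahr* and *Zbtb16*. They were chosen by symbol, for their known roles, to ask whether progenitor CD8+ T cells from mice with a T cell deletion of UTX keep their CD8 identity, and all 7 were found among the 25860 genes listed in the RNA-seq table. The cells were sorted from the pancreatic lymph nodes of NOD mice that carry NY8.3, a transgenic T cell receptor for the islet antigen IGRP. The NOD.NY8.3 group kept UTX (here WT), and the UTXTCD.NY8.3 group (here UTX TCD) carried floxed *Kdm6a*, the X-linked gene for UTX, with a Cre driven by the *Lck* promoter, which acts in developing thymocytes and so reaches every T cell lineage. Controls of the parent NOD line were littermates with the floxed gene and no Cre, the study used females only, and the age of these mice is not given in the sources used here. RNA-seq and ATAC-seq had 3 libraries per genotype each. The study counts 3 mice per genotype as biological replicates for ATAC-seq and gives 3 per group for RNA-seq as well. Whether any library pooled mice is not given in the sources used here, so the p-values below measure the spread between these libraries. The sample descriptions give the sort gate as Ly108+CXCR6- and the study's methods as Ly108+CD39-.

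A mature T cell holds its lineage through factors that switch on 1 program and silence the others. ThPOK, the product of *Zbtb7b*, commits thymocytes to the CD4 helper lineage and is silenced by RUNX3 in the CD8 lineage, FOXP3 defines regulatory T cells, and PLZF, the product of *Zbtb16*, gives NKT and other innate-like lymphocytes their effector character. GATA3 and RORα act in type 2 helper cells and ILC2, and RORα, c-MAF and the ligand-activated receptor AHR act in type 17 cells, ILC3 and IL-10-producing cells.

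*Maf* and *Rora* transcripts were higher in UTX TCD progenitors, *Zbtb7b* and *Ahr* transcripts were lower, *Gata3* differed by a small margin, and *Foxp3* and *Zbtb16* overlapped between the genotypes. Values are the authors' normalized counts, and folds come from limma on the log2 scale with p-values adjusted over all 14459 genes with a mean of at least 10. A call needed a log2 fold change beyond 0.5 in either direction together with an adjusted p under 0.05, and 2538 genes (17.6%) met both. Of the 7 genes, 6 passed the filter, and *Zbtb16* did not. Among the 6, 2 were called higher in UTX TCD, where the share of all tested genes was 10.5%, and 2 were called lower, where it was 7.05%. In 5 of the 6 the libraries of 1 genotype all lay above those of the other, as they did for 51.9% of all tested genes. The median log2 fold change of the 6 was 0.14, beside 0 for all tested genes. With 3 libraries against 3, an exact two-sided permutation test allows no p below 0.1, so the tests rest on the spread shared across genes in limma. In bulk samples like these, fewer cells of a type and less RNA per cell cannot be told apart.

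**Figure D1:**
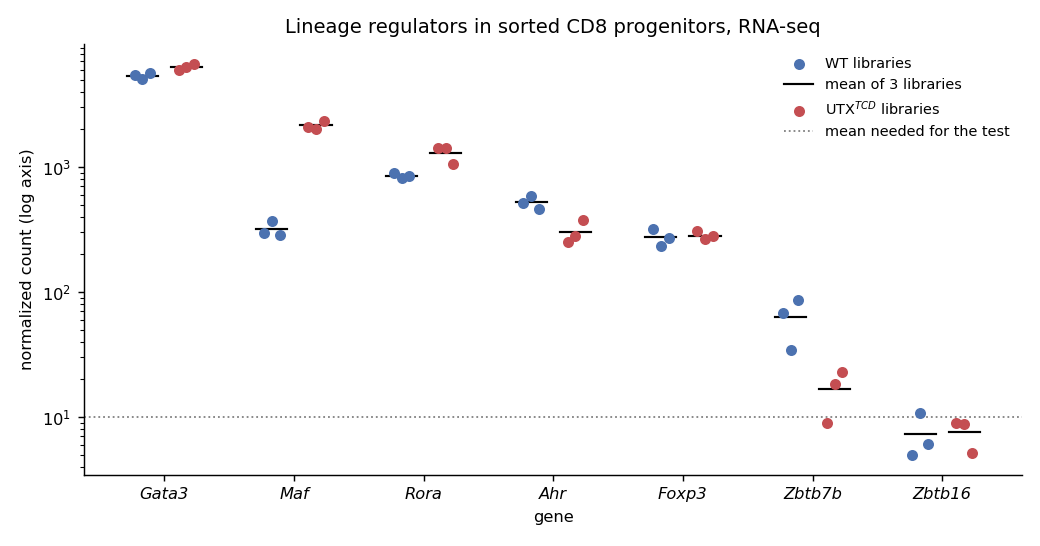
Normalized count of each of the 7 genes in each of the 6 RNA-seq libraries (vertical axis, log scale), with WT and UTX TCD side by side, a bar at each group mean and a dotted line at the mean of 10 needed for the test. *Maf* lies between 288 and 369 in WT and between 2019 and 2346 in UTX TCD, and *Zbtb16* stays at or under 10.9 in all 6.

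CD8 identity itself was checked first. *Cd8a*, the coreceptor chain found in all CD8+ T cells, had 272448, 270012 and 274004 normalized counts in WT libraries 1 to 3, and 311527, 312999.9 and 270975 in UTX TCD. UTX TCD libraries 1 and 2 were above all WT libraries while library 3 lay inside their range, and the log2 fold change was 0.13 (adjusted p = 0.146). *Cd8b1*, the partner chain of the conventional CD8 coreceptor, had 148808, 138851 and 136749 counts in WT and 121688, 111349 and 95740 in UTX TCD. All 3 UTX TCD libraries were below WT, by a log2 fold change of -0.37 (adjusted p = 0.00634), under the fold limit. *Cd4*, the coreceptor gene of helper T cells, had 90.1, 104 and 83.1 counts in WT and 58.5, 68.1 and 41.3 in UTX TCD. It was called lower (log2 fold change -0.74, adjusted p = 0.0384) in all UTX TCD libraries, but the call was lost in 8 of 18 alternative settings (-0.89 to -0.54, adjusted p up to 0.101), among them without any 1 library other than UTX TCD library 2. In RPKM, reads per kilobase of exon scaled to the counted reads of each library, the WT mean was 516 for *Cd8a* and 658 for *Cd8b1* against 0.158 for *Cd4*, and the UTX TCD means were 590, 532 and 0.0997. In both genotypes, then, the transcripts of the CD8 coreceptor were abundant and that of CD4 was low beside them.

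Of 18 CD8 T cell identity genes, all tested, 2 were called higher, 3 lower and 13 were not called, with a median log2 fold change of -0.07. The 2 called higher were *Tbx21* (1.16, adjusted p = 0.00057), which encodes T-bet, and *Eomes* (0.62, adjusted p = 0.00388), which encodes a T-box factor of memory and effector cells. The *Eomes* call depended on UTX TCD library 3, which held 26829 counts against 19100 and 19086 in libraries 1 and 2, and without it the log2 fold change was 0.46. Those called lower were *Ccl5*, a chemokine gene (-1.34, adjusted p = 0.0325), *Ctsw*, a protease gene of cytotoxic cells (-0.53, adjusted p = 0.000143), and *Crtam* (-0.50, adjusted p = 0.000221). These 3 calls were lost in 7, 3 and 5 of 18 alternative settings. *Ccl5* ranged from -1.90 to -0.99 over them, with an adjusted p of up to 0.13, and lost its call without WT library 1 or 2 or UTX TCD library 1 or 2. Its groups overlapped, since UTX TCD library 3 held 672 counts, inside the WT range of 631 to 1089. UTX TCD libraries 1 and 2 held 227 and 190. *Ctsw* ranged from -0.56 to -0.46, under the fold limit without UTX TCD library 3 (-0.47), and *Crtam* from -0.54 to -0.44, under it without WT library 2 or UTX TCD library 1 or 2. With no limit on the fold change, 6 of the 18 genes were called higher and 8 lower, so many of the uncalled genes differed by small margins. *Runx3* and *Tcf7*, named after their values were seen, had log2 fold changes of 0.12 and -0.07. The 18 genes summed to 1535789, 1481609 and 1496575 counts in WT and 1543903, 1510424 and 1426945 in UTX TCD, and these sums overlapped.

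*Maf* showed the widest difference of the 7. Its product, c-MAF, is a basic leucine zipper factor of follicular helper and type 17 cells and of T cells that make IL-10. The WT libraries had 297, 369 and 288 normalized counts, and the UTX TCD libraries had 2094, 2019 and 2346. Each UTX TCD library held over 5 times as many counts as any WT library, and the replicates within each genotype lay close together. The group means were 318 ± 44.4 and 2153 ± 172 (SD, n = 3 each), a 6.77-fold difference. The limma log2 fold change was 2.76 (95% confidence interval 2.50 to 3.02, adjusted p = 5.07e-07). Over the 6 libraries, the transcripts with a pattern nearest to that of *Maf* were *Psrc1* (root mean square difference 0.093 log2 units), *Serpine2* (0.107) and *Zdhhc2* (0.129). *Psrc1* went from 198, 274.5 and 183 counts in WT to 1480.1, 1508 and 1671 in UTX TCD, at a log2 fold change of 2.84.

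*Rora* encodes RORα, a nuclear receptor needed for ILC2 and active in type 17 cells. It had 892, 813 and 842 normalized counts in WT and 1428, 1408 and 1059 in UTX TCD. All 3 UTX TCD libraries were above WT, with library 3 nearer to WT than the other pair. The means of 849 ± 39.9 and 1298 ± 208 (SD, n = 3 each) differed 1.53-fold, and the log2 fold change was 0.60 (95% confidence interval 0.33 to 0.87, adjusted p = 0.00389). Its nearest patterns were *Slc25a23* (0.057 log2 units), *Stx1a* (0.063) and *Lrrc73* (0.066), all with a lower UTX TCD library 3 than libraries 1 and 2.

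Of 13 type 17 and ILC3 genes around RORα, 12 were in the table and 8 were tested, with 2 called higher and 1 lower and a median log2 fold change of 0.21. *Il23r*, the receptor gene for IL-23, had 1.98, 8.88 and 4.58 counts in WT and 15.7, 9.61 and 53.1 in UTX TCD. Its log2 fold change of 1.96 (adjusted p = 0.0468) became 1.28 (adjusted p = 0.144) without library 3, and the call was lost in 8 of 17 alternative settings (1.28 to 2.46, adjusted p up to 0.147). The others were without WT library 1 or 3, without UTX TCD library 1, with a pseudocount of 5, with no filter, with limma without trend and with the replicate block. *Npas2*, a circadian clock gene, was called lower (-3.05, adjusted p = 0.00299). Its reads numbered 69, 45 and 69 in WT and 5, 11 and 2 in UTX TCD, and its size ranged from -3.49 to -2.33 over the alternatives. Of the cytokine genes that mark the mature type 17 state, *Il17a* and *Il22* were at 0 in all 6 libraries. In these libraries 3 reads would be 2.21 to 6.75 normalized counts. *Il17f*, named after its values were seen, had reads in every library. Its counts were 1.98, 12.8 and 3.81 in WT and 2.25, 14.4 and 8.11 in UTX TCD, and the groups overlapped. UTX TCD library 3 also stood apart at *Il1r1*, with 87.0 counts against 0 and 2.40 in libraries 1 and 2, and at *Ccr6*, with 52.3 against 20.2 and 20.02. Both were named after their values were seen. Without library 3, the type 17 list had 1 call higher and 2 lower. *Tmem176a*, named after its values were seen, was then called lower (-0.91, adjusted p = 0.00873, against -0.46, adjusted p = 0.322, with all libraries). Without library 3, *Maf* differed by 2.70, *Rora* by 0.74, *Zbtb7b* by -2.10 and *Ahr* by -0.96 on the log2 scale, and all 4 were still called.

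*Gata3*, required for type 2 helper cells and ILC2 and also expressed through T cell development, was the most abundant of the 7 genes. It had 5429, 5022 and 5647 normalized counts in WT and 5941, 6325 and 6722 in UTX TCD. The UTX TCD libraries were all above WT, with a gap between the nearest libraries smaller than either group's SD. The means were 5366 ± 317 and 6329 ± 391 (SD, n = 3 each), a ratio of 1.18. The log2 fold change of 0.24 (95% confidence interval 0.10 to 0.38, adjusted p = 0.0154) passed the p limit but not the fold limit. Of 12 type 2 and ILC2 genes, only 4 were abundant enough to test, and limma called none of them, nor did edgeR or DESeq2, although 2 had an unadjusted p under 0.05. Their median log2 fold change was 0.04. *Gfi1*, a repressor gene that acts in ILC2, was just under the fold limit at 0.48 (adjusted p = 0.00362), above WT in every UTX TCD library, and is named after its values were seen, as is *Ptgdr2*. With some alternatives the list had 1 call higher: without WT library 2, without UTX TCD library 3 (*Gfi1*, 0.55), with libraries scaled to the same sum, with no filter and with no fold limit. Without UTX TCD library 3, *Ptgdr2*, which encodes a prostaglandin receptor of type 2 cells, was called lower (-1.38, adjusted p = 0.0242, against -0.92, adjusted p = 0.146, with all libraries). The list summed to 13303, 14242 and 14025 counts in WT and 17079.6, 17621 and 16629 in UTX TCD, higher in every UTX TCD library. Nearly all of these counts were *Zfpm1* and *Gfi1*, neither of them called with all libraries. *Il4*, the signature cytokine of type 2 cells, had 0, 0.99 and 0 counts in WT and 2.25, 0 and 0 in UTX TCD, at most 1 read per library. *Zfpm1*, a cofactor of GATA factors and the most abundant gene of the list over the 6 libraries, had a log2 fold change of 0.16 (adjusted p = 0.0614). In UTX TCD alone, the mean RPKM was 17.49 for *Zfpm1* and 18.98 for *Gfi1*.

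*Zbtb7b*, the gene for ThPOK, was scarce in WT progenitors and scarcer in UTX TCD. The WT libraries had 68.4, 34.6 and 86.2 normalized counts, and the UTX TCD libraries had 9.0, 18.4 and 22.9. Every UTX TCD library was below every WT library, with WT library 2 the lowest of its group. The reads behind these counts numbered 69, 35 and 113 for WT, against 4, 23 and 31 for UTX TCD, whose library 1, with 4, is also the shallowest. The means were 63.0 ± 26.2 and 16.8 ± 7.08 (SD, n = 3 each), 3.76-fold apart. The log2 fold change was -1.85 (95% confidence interval -2.85 to -0.84, adjusted p = 0.0095). *Plekhg3* (0.319 log2 units), *Tecta* (0.328) and *Akr1c12* (0.352) had the nearest patterns, at wider distances than the neighbors of the other called genes.

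Of 8 CD4 helper genes around ThPOK, 7 were tested, 2 were called higher and 2 lower, and the median log2 fold change was 0.15. *Cxcr5*, the chemokine receptor gene of follicular helper and of progenitor CD8+ T cells, had 2658, 2788 and 2298 counts in WT and 6429, 6344 and 8593 in UTX TCD. It was higher in all UTX TCD libraries (log2 fold change 1.45, adjusted p = 2.63e-05) and was the most abundant gene of the list over the 6 libraries. In WT alone, *Tnfsf8* of the same list lay above it in every library (mean RPKM 7.15 against 5.35). The list summed to 7441, 8311 and 7047 counts in WT and 10970.3, 10719.8 and 14778 in UTX TCD. *St8sia6*, a sialyltransferase gene, was also called higher (0.64, adjusted p = 0.0192), a call lost without WT library 3 or without UTX TCD library 3 (0.55, adjusted p = 0.0564). *Ccr4*, a chemokine receptor gene of type 2 helper and regulatory T cells, fell from 681.5, 682 and 731 counts to 171, 162 and 98.0 (log2 fold change -2.32, adjusted p = 3.82e-05). The other gene called lower was *Cd4*, whose call was lost in 8 of 18 alternative settings, as given above.

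*Foxp3*, which specifies regulatory T cells, had 317, 235 and 272 normalized counts in WT and 306, 263 and 280.1 in UTX TCD. The groups overlapped, and every UTX TCD value lay inside the WT range. The log2 fold change was 0.05 (95% confidence interval -0.28 to 0.39, adjusted p = 0.809), and it turned to -0.056 without WT library 2 and to -0.006 without UTX TCD library 1. The regulatory T cell list held 13 symbols, of which 1 is a former symbol of *Izumo1r*. The other 12 were in the table and 10 were tested, with 1 called higher, 2 lower and a median of 0.28. *Ikzf2*, which encodes Helios and is also expressed in progenitor CD8+ T cells, had the most normalized counts of them. These were 16070.3, 23689 and 16696 in WT and 27524, 28668 and 41034 in UTX TCD. All UTX TCD libraries were above WT (log2 fold change 0.78, adjusted p = 0.00662). In RPKM, which allows for exon length, *Tnfrsf18* (26.75) and *Izumo1r* (12.68) had higher WT means than *Ikzf2* (11.19). In UTX TCD the means were 14.35, 16.94 and 20.1 in the same order. *Tnfrsf18*, which encodes GITR, and *Nrp1* were called lower, at -0.96 (adjusted p = 1.28e-05) and -0.87 (adjusted p = 0.00575). *Il2ra*, the gene for CD25, overlapped between the genotypes at 0.36 (adjusted p = 0.191).

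*Ahr* encodes a ligand-activated receptor that ILC3 and intraepithelial lymphocytes depend on. It had 516, 584 and 464 normalized counts in WT and 252, 283 and 380 in UTX TCD. All UTX TCD libraries were below WT, and library 3 came nearest to it. The means of 521 ± 60.6 and 305 ± 66.7 (SD, n = 3 each) differed 1.71-fold, with a log2 fold change of -0.79 (95% confidence interval -1.17 to -0.41, adjusted p = 0.00531). The nearest patterns were *Pglyrp1* (0.081 log2 units), *Map3k5* (0.09) and *Trbv17* (0.098). Of 8 AHR partners and targets, 6 were tested, 1 was called lower, and the median was -0.15. *Arnt*, the dimer partner of AHR, lay at 0.04 (adjusted p = 0.538) with overlapping groups. The gene called lower was *Gpr15*, a homing receptor gene induced by AHR, at -0.81 (adjusted p = 0.0383), a call lost in 6 of 18 alternative settings (-1.01 to -0.48, adjusted p up to 0.0956), including without WT library 2, which alone held 295 counts, and without each UTX TCD library. *Tiparp*, also in the list, was below WT in every UTX TCD library and just under the fold limit (-0.487, adjusted p = 9.91e-05). Without UTX TCD library 3 it was called lower (-0.501, adjusted p = 0.000318). *Nqo1* (0.46, adjusted p = 0.184) was above WT in every UTX TCD library, and *Ahrr* (1.11, adjusted p = 0.0829) overlapped. Neither was called with all libraries. The classic AHR targets *Cyp1a1* and *Cyp1b1* had fewer than 6 counts in every library of both genotypes. All of these were named after their values were seen.

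*Zbtb16*, the gene for PLZF, was barely present. It had 4.95, 10.9 and 6.10 normalized counts in WT and 9.0, 8.81 and 5.16 in UTX TCD, from 4 to 11 reads per library. The groups overlapped at means of 7.30 ± 3.13 and 7.66 ± 2.16 (SD, n = 3 each), too few counts to be tested. Without the filter its log2 fold change was 0.09 (adjusted p = 0.909). Of 14 innate-like and NKT genes, 12 were tested, 3 were called lower and the other 9 were not called, with a median of -0.19. Those lower were *Plac8* (-1.46, adjusted p = 0.00176), *Klrb1f* (-1.01, adjusted p = 0.0271) and *Il12rb2*, an IL-12 receptor gene (-0.96, adjusted p = 0.000156). The *Klrb1f* call was lost in 5 settings, among them without any 1 WT library or UTX TCD library 2 (-1.20 to -0.66, adjusted p up to 0.0792). *Klrb1c*, which encodes the NK1.1 antigen in some strains, had 5.60 to 55.3 counts and overlapped between the genotypes (-1.18, adjusted p = 0.140).

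Levels of different genes were compared in RPKM. In WT the order of the means was *Gata3* (9.29), *Ahr* (0.584), *Rora* (0.447), *Foxp3* (0.413), *Maf* (0.267), *Zbtb7b* (0.0773) and *Zbtb16* (0.00957). Of the neighbors in that order, *Rora* and *Foxp3* overlapped between libraries, while the other neighbors did not. In UTX TCD the order was *Gata3* (11.5), *Maf* (1.88), *Rora* (0.714), *Foxp3* (0.445), *Ahr* (0.356), *Zbtb7b* (0.0216) and *Zbtb16* (0.0104). There *Foxp3* and *Ahr* overlapped between libraries, while *Maf* moved from place 5 to place 2, above *Rora* in every library. *Ahr* moved from place 2 to place 5. *Zbtb7b* ranged from 0.0116 to 0.0296 and *Zbtb16* from 0.00708 to 0.0123 in UTX TCD, so the pair, apart in WT, overlapped there. Even the raised *Maf* stayed far below *Tcf7*, at 619 in WT and 614 in UTX TCD on the same scale. The strand of the libraries is not stated, and exons of genes on the opposite strand overlap some of those above: *Foxp3* shares 590.0 bases with *Ccdc22*, 373 with *Gm36995* and 266 with *Ppp1r3f*, and *Maf* shares 440.0 with *Gm15655*. *Foxp3* also shares 853 bases with *Flicr* on its own strand. Reads from these shared bases were not separated.

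Relatives in the same protein families gave a point of comparison. Of 20 such relatives, 15 were tested, 2 were called higher and 1 lower, with a median of 0.20. *Zbtb20* was among those higher (0.74, adjusted p = 0.000412), and *Gata1* was lower, with 179, 183 and 189.9 counts in WT and 87.7, 87.3 and 114 in UTX TCD (-0.94, adjusted p = 0.00253). Without UTX TCD library 3, *Rorb*, named after its values were seen, was also called lower (-2.72, adjusted p = 0.0341). With all libraries *Rorb* lay at -1.64 (adjusted p = 0.219) and overlapped between the genotypes.

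**Figure D2:**
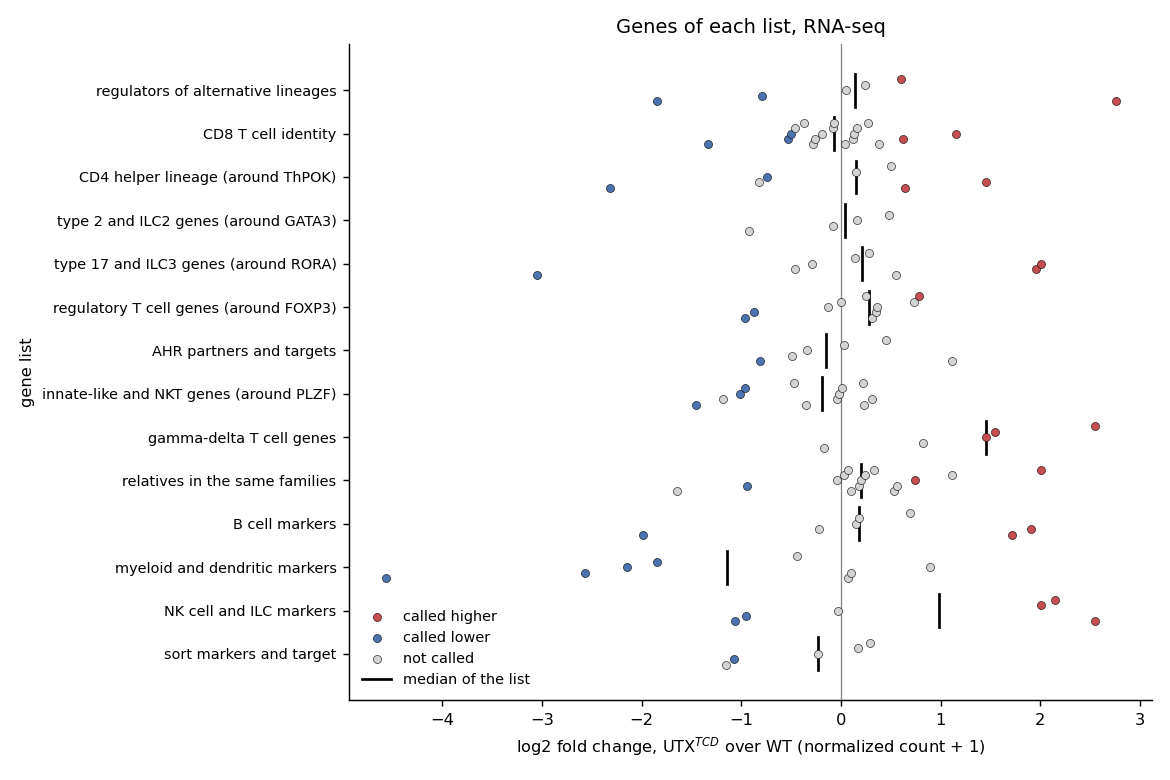
Log2 fold change (UTX TCD over WT, horizontal axis) of each tested gene in each gene list, with called genes in color and the list median as a bar. The γδ T cell list has a median of 1.45 and the myeloid list of -1.14, while the CD8 identity list sits at -0.07.

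Markers of other cells that a lymph node sort could hold were tallied as whole lists, and their part in the results was not tested. The γδ T cell list held 10 symbols, 1 of them a former symbol of *Scart2*. Of these, 5 were in the table and tested, and 3 were called higher: *Scart2* (2.55), *Sox13* (1.55) and *Trdv4* (1.45). *Trdc*, the constant region of the δ chain and the most abundant of them, was not called (-0.17, adjusted p = 0.0451), and the list summed to 67697, 60283 and 62804 counts in WT and 67387, 63213 and 64263 in UTX TCD. The sums overlapped although the called genes rose. Of 9 B cell markers, 7 were tested, with *Cd22* (1.90) and *Ms4a1* (1.72) called higher and *Cd79b* (-1.98) lower. The *Ms4a1* call was lost without UTX TCD library 3 (1.21, adjusted p = 0.112), which held 73.0 counts against 20.2 and 29.6 in libraries 1 and 2, and in 5 of 17 alternative settings in all (1.21 to 2.17, adjusted p up to 0.119), the others being without WT library 1 or 3, without UTX TCD library 2 and limma without trend. The B cell sums were 114703, 97250.1 and 106683 in WT and 96366, 91004 and 82840.3 in UTX TCD, nearly all of them *Ighm*. *Pax5*, the defining B cell factor, was near 0, with at most 11.1 counts and none in UTX TCD library 2.

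Of 12 myeloid and dendritic markers, 8 were tested and 4 were called lower: *Itgax* (-4.57), *Itgam* (-2.57), *Fcgr3* (-2.15) and *Csf1r* (-1.85). The list, mostly *Cst3*, summed to 5351, 4688 and 4058 in WT and 3761, 2979 and 2949 in UTX TCD, lower in every UTX TCD library. *Cd14* had 3.96, 0 and 1.52 counts in WT and 2.25, 0 and 0 in UTX TCD, and *Lyz2*, at 0.07, overlapped. Of 9 NK cell and ILC markers, 6 were tested, with 3 called higher, *Klra4* (2.55) and *Klre1* (2.15) among them, and *Gzma* (-1.06) and *Kit* (-0.95) lower. These summed to 8798, 8731 and 8064 in WT and 7945, 7409 and 8831 in UTX TCD, mostly *Klrk1*, and overlapped. *Ncr1*, the defining NK receptor, was at 0 in 4 of the 6 libraries. Of the sort markers, *Slamf6*, which encodes Ly108, overlapped at 0.29 (adjusted p = 0.0890), and *Entpd1*, which encodes CD39, stayed between 4.42 and 29.6 counts (-1.15, adjusted p = 0.131). *Cxcr6* had 12757, 9619 and 13724 counts in WT and 5286, 5994 and 5695 in UTX TCD (-1.07, adjusted p = 0.000131), so the transcript was present in both genotypes and lower in UTX TCD. *Cd44* lay at 0.17 (adjusted p = 0.0322). *Kdm6a* itself had 28365, 28949 and 29172 counts in WT and 24158, 24792 and 24579 in UTX TCD (-0.23, adjusted p = 0.00114). These counts cover the whole gene, the deleted part was not read apart, and they do not by themselves show loss of UTX. The Y-linked relative *Uty* had at most 1 read per library.

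Chromatin accessibility around the 7 genes was read from the authors' list of 23932 ATAC-seq peaks, each with a mean log2 read concentration per genotype. All listed peaks had passed the authors' FDR limit of 0.05, so a listed peak differs by selection, and no value per library is at hand to test a difference again. The list assigned 58 peaks to the 7 genes, of which 46 had the higher mean in UTX TCD (79.3%) and 12 the lower, beside 68.8% higher and 31.2% lower among all listed peaks. The median difference of the means was 0.55, beside 0.49 for all. In 17 of the 58 the means differed by over 1 log2 unit, a share of all peaks that stood at 29.3%. By the authors' annotation, 34 of the 58 lay in introns, 23 between genes and 1 at a promoter. The direction went with the gene: *Rora* had 18 peaks, all higher, *Maf* 19 of 21 higher, *Gata3* 9 of 10 higher, and *Zbtb16* 5, *Ahr* 2, *Foxp3* 1 and *Zbtb7b* 1, all lower. Of 2 listed peaks inside the *Zbtb7b* span, 1 was assigned to another gene and is not counted here. The same held for 1 of 6 inside the *Zbtb16* span. For *Maf*, *Rora*, *Ahr* and *Zbtb7b* the prevailing direction of the peaks was that of the transcript.

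*Rora* had a cluster of gains. The gene spans 734.8 kb of the + strand, chr9:68653404-69388246 in GRCm38.p6. In the intron 1 that follows its internal start site, 9 peaks lay within 21.9 kb, chr9:69298023-69319938, with differences from 0.43 to 4.70 and a median of 1.22. The largest, chr9:69310555-69310955, 20914 bases after that start site, had a mean log2 concentration of 2.78 in WT and 7.48 in UTX TCD. That gain of 4.70 was number 10 among all 23932 listed peaks. A neighbor, chr9:69314534-69314934, went from 5.08 to 9.26 and was number 16, and is named after its values were seen. The peak nearest to the start site, chr9:69298023-69298423, at 8382 bases, went from 8.40 to 8.83. The other 9 peaks lay upstream, in introns of the longer transcript, with differences from 0.33 to 2.00. Of 28 listed peaks inside the *Rora* span, 10 were assigned to another gene and are not counted here. Among 1016 genes with at least 5 listed peaks, 273 (26.9%) had peaks that were all higher in UTX TCD, so a uniform direction was not rare.

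**Figure D3:**
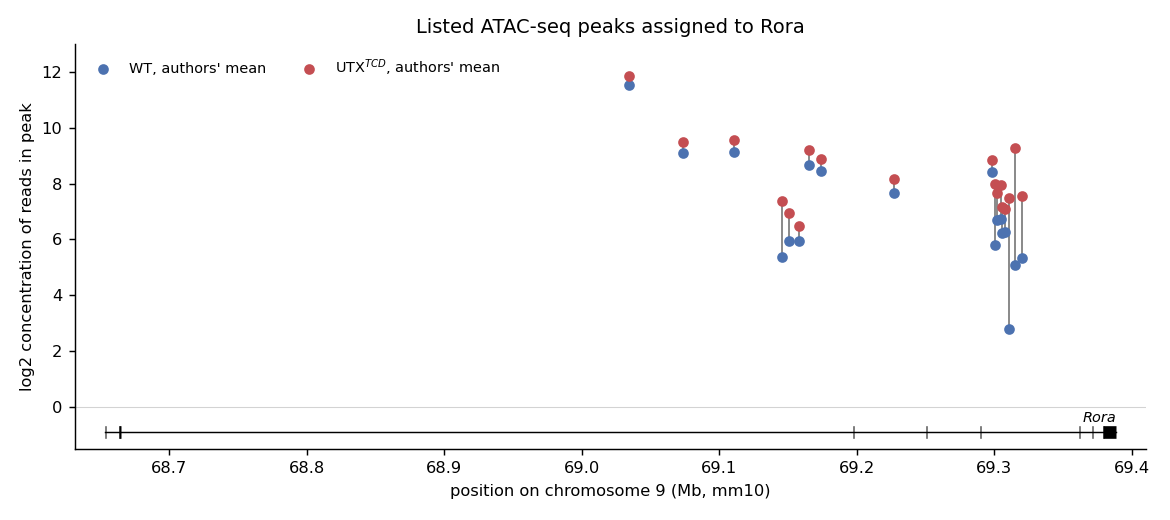
Listed ATAC-seq peaks assigned to *Rora* along chromosome 9 (horizontal axis, position in Mb), with the authors' mean log2 concentration in WT and in UTX TCD (vertical axis) joined by a line for each peak. All 18 peaks are higher in UTX TCD, and the longest lines stand near chr9:69310555, at 2.78 and 7.48.

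*Maf*, a short gene at chr8:115703253-115706894 on the - strand, had peaks spread over a long stretch beside it. The 13 peaks between genes were all higher in UTX TCD, by 0.54 to 2.12. The largest gain, chr8:115699934-115700334, 6760.0 bases after the start site, went from 4.06 to 6.18. The authors' annotation places it between genes, while GENCODE draws longer *Maf* transcripts, with exons from chr8:115682942-115684761 to chr8:115701435-115707794, and so puts it in an intron. The nearest peak, chr8:115707750-115708150, 1056 bases before it, was already strong in WT, at 10.44, and reached 10.98. It is also annotated between genes, but covers the start of the GENCODE exon that ends at 115707794. The other 8 lay in the last intron of *Wwox*, the neighboring gene, with 6 higher and 2 lower, from -1.27 to 0.75. Of the 21, 18 were more than 100 kb from the *Maf* start site, where the nearest start site is the only link to the gene.

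**Figure D4:**
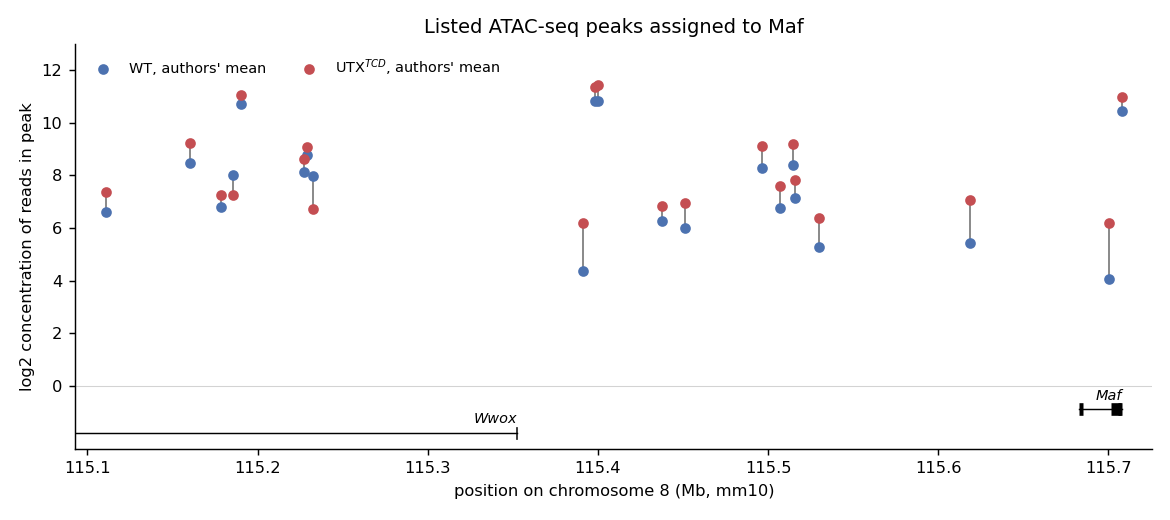
Listed ATAC-seq peaks assigned to *Maf* along chromosome 8 (horizontal axis, position in Mb), with the authors' mean log2 concentration in WT and UTX TCD (vertical axis) joined by a line for each peak. Of the 21 peaks, 19 are higher in UTX TCD, and both lower ones lie in *Wwox*.

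At *Gata3* the largest difference was in intron 4, chr2:9867442-9867842, from 8.95 in WT to 10.04 in UTX TCD. The nearest peak, in intron 2, chr2:9875926-9876326, went from 10.28 to 10.86. The other 8 lay between genes, 76967 to 284416 bases from the start site, 7 of them higher. At *Zbtb16*, whose transcript was near the floor in both genotypes, all 5 intronic peaks were lower in UTX TCD, by -0.51 to -2.07. The largest of these, chr9:48783371-48783771, went from 6.10 to 4.04, and the one nearest to the start site, chr9:48804549-48804949, from 6.27 to 4.59. Peaks that were all lower occurred at 172 (16.9%) of the 1016 genes with at least 5.

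Both *Ahr* peaks lay upstream of the gene, between genes. The largest difference was at chr12:35554285-35554685, 19496 bases before the start site, from 6.81 in WT to 5.27 in UTX TCD, and the other, chr12:35558861-35559261, went from 6.82 to 5.98. The *Foxp3* peak, chrX:7591593-7591993 in intron 11, went from 6.62 to 5.67, while the transcript overlapped between the genotypes. The *Zbtb7b* peak was the only 1 of the 58 that the authors' annotation placed at a promoter, chr3:89393578-89393978, at 400.0 bases before the start site, and went from 9.54 to 8.77.

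Letters of binding motifs were searched on both strands in the central 300 bases of 23907 listed peaks. Searched were AGATAA for GATA factors, AGGTCA for the ROR half-site, TGCTGA for the MAF half-site, GCGTG for the AHR core, CTTTGA for TCF and LEF, TTCNNNGAA for STAT, TGTGGT for RUNX and AGGAAG for ETS. Matches can overlap each other, and a match is a description of the letters, not a site. The letters of the 4 families found among the lineage regulators occurred at or below their share of all windows over the 58, but not at each gene. GATA letters were in 7 of the 58 windows (12.1%), beside 12.2% of all, with 4 of the 18 *Rora* windows and 2 of the 21 *Maf* windows. ROR letters were in 9 (15.5%), beside 15.6%, with 3 *Rora* and 3 *Maf* windows. MAF letters were in 13 (22.4%), beside 23.9%, with 6 and 2, and AHR letters in 8 (13.8%), beside 26.3%, with 3 and 1. Over the 58 windows the other letters, of factors general to T cells, occurred above theirs, but not at each gene. The STAT letters were in 11 (19.0%), beside 8.82% of all windows, with 1 of the 18 *Rora* windows and 4 of the 21 *Maf* windows. The TCF and LEF letters were in 19 (32.8%), beside 25.1%, with 9 *Rora* and 4 *Maf* windows. RUNX letters were in 23 (39.7%), beside 34.3%, with 6 and 10. ETS letters were in 35 (60.3%), beside 49.3%, with 8 and 14. These shares were not tested.

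The sequences of 5 windows are shown because they hold the largest gains at *Rora* and at *Maf*, the peak annotated to the promoter of *Zbtb7b*, and the larger loss at *Ahr*. They come from the RefSeq genome GRCm38.p6 of C57BL/6J, not NOD, and are given 5′ to 3′ on the + strand with capitals at the matched motif letters of either strand. The first *Rora* window matches only the TCF and LEF letters, and the next those of TCF and LEF, RUNX and ETS. The *Maf* window matches MAF, RUNX and ETS, the *Zbtb7b* window the AHR core and ETS, and the *Ahr* window ETS in 2 places. G and C make up 48.0%, 39.0%, 46.3%, 64.7% and 46.7% of the bases in the order shown. The *Zbtb7b* window starts at the last base of the RefSeq promoter window chr3:89393329-89393628. No listed peak assigned to *Gata3*, *Rora* or *Foxp3* overlapped a RefSeq promoter window of its own gene. Listed peaks assigned to other genes were not compared with these windows.
Rora, chr9:69310605-69310904, + strand: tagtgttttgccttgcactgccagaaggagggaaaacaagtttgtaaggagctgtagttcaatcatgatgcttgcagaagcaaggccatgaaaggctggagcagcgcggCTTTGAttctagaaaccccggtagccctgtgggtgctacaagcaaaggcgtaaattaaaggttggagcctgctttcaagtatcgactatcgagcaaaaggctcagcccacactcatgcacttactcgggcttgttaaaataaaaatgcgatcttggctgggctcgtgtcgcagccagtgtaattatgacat
Rora, chr9:69314584-69314883, + strand: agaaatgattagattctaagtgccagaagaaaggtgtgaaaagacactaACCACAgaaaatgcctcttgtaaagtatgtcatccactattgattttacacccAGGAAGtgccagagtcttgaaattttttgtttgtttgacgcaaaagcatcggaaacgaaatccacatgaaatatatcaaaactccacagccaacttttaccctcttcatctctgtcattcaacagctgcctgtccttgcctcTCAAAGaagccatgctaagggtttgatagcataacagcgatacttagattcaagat
Maf, chr8:115699984-115700283, + strand: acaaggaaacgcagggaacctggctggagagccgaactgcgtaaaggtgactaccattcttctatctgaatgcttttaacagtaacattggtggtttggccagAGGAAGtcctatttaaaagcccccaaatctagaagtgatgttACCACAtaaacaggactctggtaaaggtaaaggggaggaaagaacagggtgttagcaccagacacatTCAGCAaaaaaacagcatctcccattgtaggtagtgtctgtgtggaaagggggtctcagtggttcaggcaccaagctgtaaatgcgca
Zbtb7b, chr3:89393628-89393927, + strand: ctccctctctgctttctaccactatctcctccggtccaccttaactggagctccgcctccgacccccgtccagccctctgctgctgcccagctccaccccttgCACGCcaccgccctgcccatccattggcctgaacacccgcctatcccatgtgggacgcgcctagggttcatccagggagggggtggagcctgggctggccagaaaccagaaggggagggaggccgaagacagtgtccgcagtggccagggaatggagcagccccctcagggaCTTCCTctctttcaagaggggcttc
Ahr, chr12:35554335-35554634, + strand: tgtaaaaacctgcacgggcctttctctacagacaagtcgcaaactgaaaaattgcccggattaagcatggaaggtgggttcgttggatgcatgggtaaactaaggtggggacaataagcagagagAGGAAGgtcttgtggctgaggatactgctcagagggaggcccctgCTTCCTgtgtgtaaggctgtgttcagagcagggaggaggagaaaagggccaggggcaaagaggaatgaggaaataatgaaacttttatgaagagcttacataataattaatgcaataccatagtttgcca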

How the data were processed

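RNA-seq and ATAC-seq covered sorted CD8+ progenitors, 3 libraries per genotype each. For RNA-seq the authors used FastQC, HISAT2 2.2.1 to mm10, featureCounts and DESeq2; gene annotation and strand are not given in the sources used here. The deposited RNA signal is a gene count divided by 1 size factor per library. Values were whole multiples of 1 step per library (100% within 0.01 reads), which gave back the reads. For ATAC-seq the authors used Cutadapt, Bowtie2, SAMtools, Picard, MACS2, DiffBind and HOMER, and their deposited log2 values are mean normalized read concentrations per genotype. The deposited FDR, a p-value adjusted by the authors, was read only to find the limit of the list. The authors' comparison columns (fold, p-value and FDR for peaks, log2 fold change, its standard error and adjusted p-value for genes) are not used or printed.

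Counted reads numbered 146456724, 144503203 and 193568919 for the WT libraries, against 61512402, 175462433 and 187275082 for UTX TCD, and a floor of 3 reads was 2.97, 2.96, 2.29, 6.75, 2.40 and 2.21 normalized counts. Floors cover counting error only. The depth of the ATAC-seq libraries is unknown.

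Genes whose normalized counts averaged 10 or more were fitted with limma 3.58.1 in R 4.3.3 (lmFit, eBayes with trend) on log2(normalized count + 1), genotype as the only term, with Benjamini-Hochberg adjustment over all genes tested. Count tests on the recovered reads called 2541 genes with edgeR 4.0.16 and 2422 with DESeq2 1.42.0. The alternatives covered the pseudocount, filter, scaling, test, replicate block, fold limit, peak limits and each library left out. Exon lengths came from GENCODE vM21, gene spans and sequences from RefSeq GRCm38.p6. Peaks were matched by the gene name of the authors' annotation.

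The genes and lists were chosen with earlier results of these data known. Named genes are the 7 regulators, the sort markers, *Cd8a*, *Cd8b1* and *Cd4*, the first gene of each list with up to 4 called genes of largest absolute fold change, and the 3 genes nearest in pattern to each called regulator; named peaks are the largest difference and the nearest to the start site. Lists were described without a test. Some items that this rule names are left out.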

Additional observations from a re-analysis of the deposited data

How the results depend on the processing

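The 4 called regulators kept their call and direction in every alternative in which they were tested, and of 107 alternative fits of the 6 tested regulators 104 kept both call and direction. With 1 library left out, the log2 fold change ranged from 2.69 to 2.87 for *Maf*, 0.53 to 0.74 for *Rora*, -2.22 to -1.48 for *Zbtb7b*, -0.96 to -0.66 for *Ahr*, 0.19 to 0.28 for *Gata3* and -0.056 to 0.16 for *Foxp3*. *Foxp3* changed sign without WT replicate 2 (-0.056) and without UTX TCD replicate 1 (-0.006), and the cause was not tested. With no limit on the fold change *Gata3* was called (0.24, adjusted p = 0.0154; 0.00262 to 0.0531 over its alternatives), 2924 genes were called higher and 2963 lower, and the lists held 23 calls higher and 30 lower, since the limit was dropped. With a mean of at least 50, 1 regulator was called lower, since *Zbtb7b* was not tested. With 1 library left out, 1317 to 1540 genes were called higher and 847 to 1030.0 lower, and the lists held 12 to 18 calls higher and 16 to 21 lower. Counts of single lists stayed within 1.5 times in 409 comparisons and moved further in 59. With the replicate block *Maf* stayed at 2.76 (adjusted p = 2.28e-05, and 1.55e-120 to 0.000202 over its alternatives). The numbers in the labels were not taken as pairs in the main fit. Deviations of same-numbered libraries correlated across genes at 0.305, -0.2 and 0.09. With 3 libraries per genotype, these values cannot settle whether libraries were paired. Scaling moved the median of all genes by at most 0.0619. Of the 58 peaks, 46 (34 higher, 12 lower) differed by over 0.5 log2 units, 17 (12 higher, 5 lower) by over 1, and 19 (13 higher, 6 lower) lay within 50 kb, since each limit drops peaks. UTX TCD library 1, the shallowest, limits what can be seen of *Zbtb7b* and *Zbtb16*, both at 4 reads there.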

Other observations

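Accessibility and transcript did not always go the same way at related genes, all chosen here after their values were seen. *Gpr15*, with a transcript called lower in UTX TCD, had 3 listed peaks, all higher. *Izumo1r*, a folate receptor family gene of regulatory T cells, had 7 listed peaks, all lower, and a transcript at 0.36 (limma adjusted p = 0.00496). *Runx3*, the factor that silences *Zbtb7b* in CD8+ T cells, had 18 listed peaks, 6 higher and 12 lower, with a transcript at 0.12.

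Some genes near the floor in RNA had listed peaks that gained and others had listed peaks that lost, all chosen here after their values were seen. *Zbtb7c*, a relative of *Zbtb7b*, had 3 peaks, all higher by 2.37 to 3.22, and at most 5.92 normalized counts. *Gata2* had 4 peaks, all higher, with a median of 2.58, and at most 3.20 counts. *Il17f* had 1 promoter peak, higher by 2.04, and 1.98 to 14.4 counts with overlapping groups. *Cyp1b1* had 5 peaks, all higher, and at most 5.94 counts. In the other direction, *Lrrc32* had 4 peaks, all lower, with a median of -1.41, and at most 11.2 counts. *Klrb1b* had 4 peaks, all lower, with a median of -0.815, and at most 5.16 counts.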
